A study of Mus musculus with 18 samples.

Results

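Long noncoding RNAs (lncRNAs) that carry small nucleolar RNAs (snoRNAs) in their introns were followed through polysome gradients of mouse embryonic stem cells (ESCs). The 8 genes were Gas5, Snhg1, Snhg3, Snhg5, Snhg6, Snhg8, Snhg12 and Epb41l4aos, taken as the entries of the count table whose Ensembl identifiers carry these symbols, out of 51467 genes in the table. All 8 passed the filter on low counts, and 12851 genes were tested in all. Between 21 and 3288 reads were counted for each of these genes in each library, 82916 in all.

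Wild type (WT) ESCs of the V6.5 line were compared with Dgcr8 knockout (KO) ESCs, an existing knockout line. DGCR8 is the partner of DROSHA in cutting primary microRNA transcripts, so the KO cells lack canonical microRNAs. Both genotypes were grown in serum with LIF and the 2i inhibitors and were exposed to cycloheximide, which holds ribosomes on RNA, before lysis. Lysates were spun through sucrose, 3 gradients per genotype, and each gradient gave a monosome, a low polysome and a high polysome library, which makes 6 groups of 3 libraries. Reads came from the 3′ ends of polyadenylated RNA. Nothing in the sample descriptions states that the 3 gradients of a genotype came from separate cultures, so p-values measure the spread between these samples, which may be technical. The KO cells are a single engineered line, so a difference between genotypes cannot be told apart from a difference between these lines.

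In snoRNA host genes the stable small RNA is released from the debranched intron, while the spliced exons form a capped and polyadenylated RNA that reaches the cytoplasm. Many spliced host RNAs hold only short reading frames, are engaged by ribosomes near their 5′ end and are then degraded by nonsense-mediated decay (NMD), the pathway that removes RNAs whose translation stops upstream of an exon junction. Several host genes start transcription at a pyrimidine run, the 5′ terminal oligopyrimidine (TOP) motif that they share with ribosomal protein genes and that ties translation to mTOR signalling. The position of a host RNA in a gradient therefore reads its spliced exons and not the snoRNA.

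Library totals ranged from 1151649 to 4984833 counts, and 3 counts in the smallest library correspond to 2.6 CPM (counts scaled to library size). The ESC genes Pou5f1, Sox2, Nanog and Zfp42 had reads in every library, with at least 34 counts each. Dgcr8 itself kept 3′ reads in the KO, at 50.2 ± 2.58 CPM in monosomes against 74.8 ± 5.75 CPM in WT (SD, n = 3 each), and reads at a 3′ end do not check a deletion elsewhere in the gene. The low polysome library of KO replicate 1 stood apart from the other KO low polysome libraries for 2 genes that were low in the other KO libraries of this fraction. H19 was at 154 CPM there against 4.17 and 6.31 CPM, and Lin28a at 14.8 CPM against 1.28 and 1.58 CPM. Over 42 genes that were far lower in the KO by the other fractions, however, its median level was 6.09% of WT, beside 4.35% and 6.57% in the other KO low polysome libraries. Values without KO replicate 1 are given beside the low polysome results of the KO.

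The 8 genes are compact. Their basic transcripts in GENCODE M21 have 8 to 12 exons in Gas5 and 4 to 10 in Snhg1. Those of the others have between 2 exons, as in Snhg3, and 6 exons, in Snhg5. Coordinates are those of the authors' annotation on mm10. The box C/D hosts, whose snoRNAs guide methylation of ribosomal RNA, are led by Gas5 (ENSMUSG00000053332, chromosome 1, 161034607 to 161038539, plus strand), named for its accumulation in growth-arrested cells and holding 10 intronic snoRNA genes. Snhg1 (ENSMUSG00000108414, chromosome 19, 8723475 to 8726443, plus strand) is the host of U22 and its relatives and holds 6. Snhg5 (ENSMUSG00000097195, chromosome 9, 88521050 to 88522929, minus strand) holds Snord50a and Snord50b, and Snhg6 (ENSMUSG00000098234, chromosome 1, 9941959 to 9944118, minus strand) holds Snord87.

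The box H/ACA hosts, whose snoRNAs guide pseudouridylation or ribosomal RNA processing, include Snhg3 (ENSMUSG00000085241, chromosome 4, 132351934 to 132352933, minus strand), the host of the U17 snoRNAs, with Snora73b in its intron. Snhg8 (ENSMUSG00000104960, chromosome 3, 123507552 to 123508404, minus strand) holds Snora24, and Snhg12 (ENSMUSG00000086290, chromosome 4, 132308678 to 132311024, plus strand) holds 2 genes named Snora16a. Epb41l4aos (ENSMUSG00000087590, chromosome 18, 33794892 to 33795986, plus strand) was named as the antisense neighbour of Epb41l4a and holds Gm23639.

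Across the 19 basic transcripts of these genes in GENCODE M21, lengths ran from 346 to 1416 nt. The longest reading frame that opens with ATG measured between 90 and 246 nt, with a median of 126 nt. In 17 of the 19 transcripts the first such frame stopped more than 50 nt upstream of the last exon junction, the position that NMD is known to read. The longest frame did so in 12 of 19, but in no basic transcript of Snhg3 or Snhg5. Gas5 and Snhg1 supplied 5 and 4 of the 19, and the share among other spliced transcripts was not counted. The 24 intronic snoRNA genes together took 4502 reads against the 82916 of their hosts and 3 of them, both Snora16a entries and a Snord80 entry, had no read. Exons of Snhg1, Snhg3 and Snhg12 also overlap annotated snoRNA genes on the same strand, over 119, 159 and 328 bases, and reads there were assigned to neither gene, so these 3 levels may be too low. Snhg3 and Snhg6 overlap exons of Gm17300 and Mcmdc2 on the opposite strand, which the strand-specific counting kept apart.

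The start sites of these genes bear on the TOP motif, and 30 bases around each start are printed for the 6 genes with an entry in the RefSeq promoter table (GRCm38.p6), which holds 2 starts for Gas5. Snhg6 and Epb41l4aos had no entry. Each window runs 5′ to 3′ on the gene's strand and begins 10 bases before the annotated start. Capitals mark an unbroken run of at least 5 C or T that opens with C within 5 bases of that start, searched on the transcribed strand only.
Gas5, upstream start, chr1:161034591-161034620, plus strand: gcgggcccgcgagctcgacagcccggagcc
Gas5, downstream start, chr1:161035156-161035185, plus strand: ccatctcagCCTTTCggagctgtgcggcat
Snhg1, chr19:8723477-8723506, plus strand: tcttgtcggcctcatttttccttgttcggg
Snhg5, chr9:88522878-88522907, minus strand: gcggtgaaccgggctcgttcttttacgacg
Snhg3, chr4:132353667-132353696, minus strand: gaccacgcctgaCTTCCgggcgttacttaa
Snhg8, chr3:123508317-123508346, minus strand: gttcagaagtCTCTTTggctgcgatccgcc
Snhg12, chr4:132308668-132308697, plus strand: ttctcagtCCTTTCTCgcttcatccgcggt

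A run was present in 4 of these 7 windows (57.1%), in 18.3% of all 32851 promoters of the table and in 42.5% of 73 promoters of ribosomal protein genes. The longest of the runs shown, in Snhg12, spans the annotated start itself. The annotated start of Snhg3 lies 753 bases upstream of the 5′ end of the counted transcript. The downstream start of Gas5 and the start of Snhg8 lie inside the counted spans. Among the starts with a run, only that of Snhg12 coincides with the counted 5′ end. A match is a description of these letters, and the other windows hold no run that opens with C so close to the annotated start, though pyrimidine runs occur elsewhere in those of Snhg1 and Snhg5.

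To see where the host RNAs sit in WT cells, levels were compared between the fractions of each gradient. Relative to the reads of each library, all 8 host RNAs were concentrated in monosomes. Gas5, the most abundant of them there, was at 2070, 2120 and 2470 CPM in the 3 WT monosome libraries, at 483, 511 and 560 CPM in low polysomes and at 146, 145 and 129 CPM in high polysomes. Snhg6 was at 805, 716 and 931 CPM in monosomes but already at 69.8, 82.0 and 77.1 CPM in low polysomes and at 30.8, 30.3 and 29.3 CPM in high polysomes. No fraction overlapped another for either gene. How many of all genes tested separate by fraction in this way was not counted. Together the 8 RNAs took 0.709 ± 0.066% of the reads of WT monosome libraries, 0.190 ± 0.0124% in low polysomes and 0.0451 ± 0.0064% in high polysomes (SD, n = 3).

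**Figure D1:**
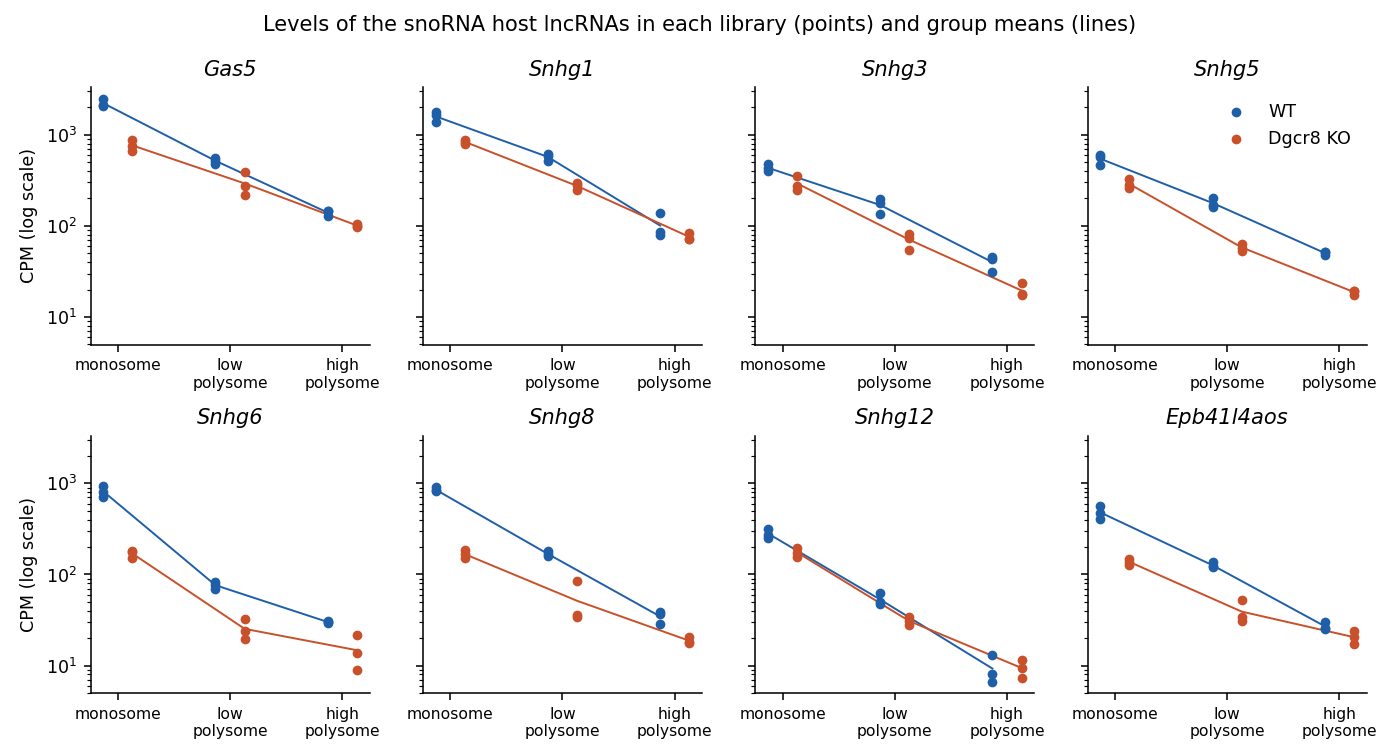
Level of each host lncRNA in CPM (log axis) in the monosome, low polysome and high polysome libraries of WT (blue) and Dgcr8 KO (red) ESCs. Points are the 3 libraries of a group and lines join group means. The group mean of every RNA is highest in monosomes and lowest in high polysomes in both genotypes. The KO points of Snhg6 in low and high polysomes overlap. All KO points lie below all WT points in monosomes.

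Since a 3′ end read count does not grow with transcript length, levels of different genes can be set side by side in CPM. The levels of Snhg1, Snhg3 and Snhg12 may be too low, for the overlap with snoRNA genes given above. Their places in the order are uncertain to that extent. In WT monosomes the order ran from Gas5 at 2220 ± 217 CPM and Snhg1 at 1590 ± 209 CPM through Snhg8 at 853 ± 44.7, Snhg6 at 817 ± 108, Snhg5 at 546 ± 66.5, Epb41l4aos at 480 ± 83.1 and Snhg3 at 434 ± 37.6 to Snhg12 at 282 ± 33.2 CPM (SD, n = 3). The ranges of Snhg8 and Snhg6 overlapped, as did those of Snhg5 with Epb41l4aos and of Epb41l4aos with Snhg3. The order was not the same in WT low polysomes, where Snhg6 was the second lowest at 76.3 ± 6.14 CPM and Snhg3 and Snhg5 stood at 169 ± 32.0 and 179 ± 21.6 CPM.

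The translation level, the log2 ratio of high polysome to monosome, was far below that of other genes. In WT cells all 8 host RNAs were lower in high polysomes than in monosomes, where 19.3% of all genes tested were called lower (limma-voom, called where the adjusted p was under 0.05 and the log2 fold change exceeded 1 in size). The log2 ratio was -4.96 for Snhg12 (SE 0.24, adjusted p = 7.39e-21), -4.74 for Snhg6 (SE 0.17, adjusted p = 7.05e-25) and -4.63 for Snhg8 (SE 0.19, adjusted p = 5.07e-23). Those 3 RNAs had the lowest translation levels of the set. Epb41l4aos, Snhg1 and Gas5 followed at -4.13, -4.01 and -3.98. Snhg3 and Snhg5 had the highest ratios of the set, -3.46 and -3.42, still an 11-fold and a 10.7-fold depletion from high polysomes. Each of the 8 lay at or below the 2.1 percentile of all genes tested.

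The median log2 ratio of the 8 was -4.07, against -0.01 over all genes tested, -2.36 over 486 other lncRNAs and -1.58 over 253 mRNAs whose coding sequence is 300 nt or shorter. Low polysomes were depleted of the host RNAs as well. All 8 were lower in WT low polysomes than in monosomes, beside 9.59% of all genes tested, with log2 ratios from -1.38 in Snhg3 to -3.41 in Snhg6 and a median of -2. The short mRNAs had a median of 0.27 in the same comparison. The class of short mRNAs was chosen with earlier results of these data known and these medians carry no test.

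**Figure D2:**
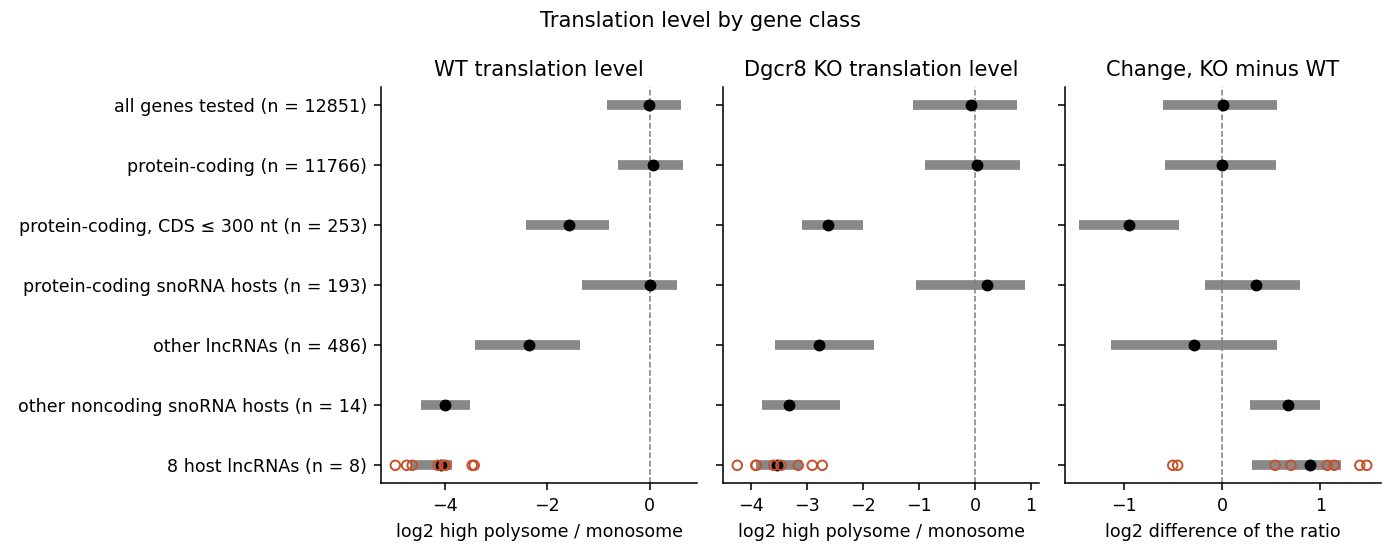
Median (black point) and middle 50% of genes (grey bar) of the log2 high polysome to monosome ratio in WT cells, in Dgcr8 KO cells and of its change, KO minus WT, by gene class, with the 8 host lncRNAs as open circles and Cct6a left out of the other noncoding hosts. The host lncRNAs have the medians -4.07, -3.54 and 0.89, and mRNAs with a coding sequence of 300 nt or less -1.58, -2.62 and -0.94.

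The Dgcr8 KO cells kept this monosome position. All 8 host RNAs were lower in KO high polysomes than in KO monosomes, beside 25.5% of all genes tested, with log2 ratios from -2.73 (SE 0.18) for Epb41l4aos to -4.25 (SE 0.21) for Snhg12 and a median of -3.54. All 8 were also lower in KO low polysomes than in KO monosomes, beside 10.5% of all genes tested, with log2 ratios from -1.42 for Gas5 to -2.75 for Snhg6. Without KO replicate 1 all 8 were still lower, and the ratio was -1.75 for Gas5, -2.32 in place of -1.84 for Snhg8 and -2.07 in place of -1.84 for Epb41l4aos. Summed over the 3 fractions of a gradient on the CPM scale, monosomes held 66.0 ± 7.3% of Gas5 in KO against 77.1 ± 1.0% in WT. For Snhg3 they held 76.2 ± 5.1% in KO against 67.6 ± 2.7% in WT (SD, n = 3 gradients). Each library is scaled to its own total, so the fractions weigh equally whatever amount of RNA they held. These percentages are therefore not shares of the RNA molecules in a gradient. Every KO gradient lay below every WT gradient for Gas5, at 57.5% in replicate 1 and at 69.8% and 70.6% in the others. The genotypes overlapped for Snhg3, at 70.3 to 79.5% in KO and 66.0 to 70.7% in WT. How many of all genes tested separate by monosome percentage in this way was not counted. For the high polysome to monosome ratio, 20.3% of all genes tested had every KO gradient above every WT gradient.

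To find how loss of DGCR8 changed the distribution of the host RNAs, the translation level was compared between genotypes. It rose in 4 of the 8, Gas5, Snhg6, Snhg8 and Epb41l4aos, beside 6.29% of all genes tested called higher, and fell in none, beside 8.81% called lower. Snhg8 had the largest change. Its log2 high polysome to monosome ratio was -4.38, -4.49 and -4.94 in the WT gradients and -2.81, -3.16 and -3.35 in the KO gradients, so every KO gradient lay above every WT gradient, as for 20.3% of all genes tested. The fitted change was 1.47 (SE 0.29, adjusted p = 1.15e-04), a 2.77-fold higher ratio.

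Epb41l4aos was at -3.93, -3.91 and -4.46 in the WT gradients and at -2.67, -3.07 and -2.39 in the KO gradients, with no overlap. Its ratio was 2.64-fold higher, a log2 change of 1.40 (SE 0.25, adjusted p = 3.24e-05). Gas5, with the most reads behind it, was at -3.81, -3.86 and -4.25 in WT and at -2.73, -3.03 and -2.93 in KO. The KO gradients of Gas5 again lay above all WT gradients, with a log2 change of 1.07 (SE 0.20, adjusted p = 6.86e-05). Snhg6 was at -4.68, -4.53 and -4.96 in WT and more spread in KO, at -3, -3.99 and -3.63. The genotypes did not overlap for Snhg6, whose log2 change was 1.14 (SE 0.26, adjusted p = 9.61e-04).

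**Figure D3:**
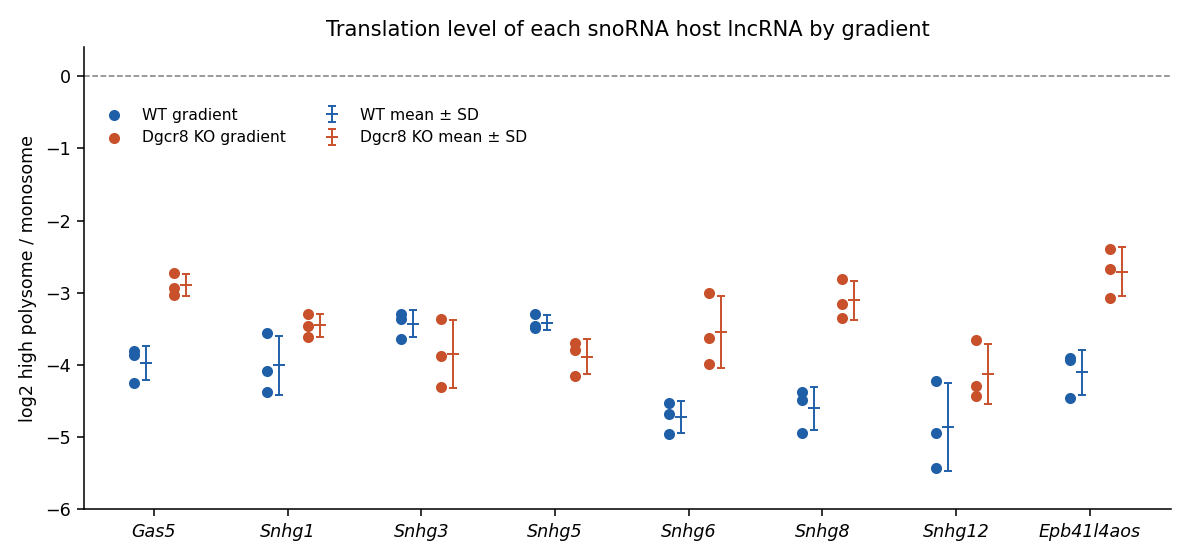
Log2 ratio of high polysome to monosome level of each host lncRNA in each WT (blue) and Dgcr8 KO (red) gradient, with the mean and SD of 3 gradients beside the points. KO gradients lie above all WT gradients for Gas5, Snhg6, Snhg8 and Epb41l4aos and below them for Snhg5; the genotypes overlap for Snhg1, Snhg3 and Snhg12.

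The other 4 host RNAs did not pass the call. Snhg1 had a log2 change of 0.54 (SE 0.20, adjusted p = 0.0375), under the fold threshold, and Snhg12, with 21 to 36 reads in each high polysome library, a change of 0.70 (SE 0.32, adjusted p = 0.0955), which was called at 1.01 without WT replicate 2. Snhg5 stood on the other side of 0. Its WT gradients were at -3.29, -3.46 and -3.49 and its KO gradients at -3.70, -4.16 and -3.79, all below WT as for 21.4% of all genes tested, for a log2 change of -0.50 (SE 0.21, adjusted p = 0.0705). Snhg3 had a change of -0.45 (SE 0.26, adjusted p = 0.206) with overlapping gradients. A p above the threshold does not show that these ratios were equal in the 2 genotypes.

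Over the 8, the median change in translation level was 0.89, beside 0.01 over all genes tested and -0.28 over the other lncRNAs. Short mRNAs went the other way, with a median of -0.94 and with 100 of 253 called lower and 1 called higher. The calls of Gas5 and Snhg6 were near the fold threshold of 1. Without KO replicate 1 their log2 changes were 0.99 and 0.91, leaving 2 of the 8 called, Snhg8 and Epb41l4aos, and Gas5 was at 0.93 without WT replicate 3. With total counts in place of TMM scaling, the median over all genes tested shifted by -0.329 and the changes of Gas5 and Snhg6 were 0.74 and 0.81, again below the threshold.

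The change was then followed through the 2 steps of the gradient. For the ratio of low polysome to monosome, none of the 8 passed the call, beside 5.03% of all genes tested called in either direction. By limma-voom 5 of them had an unadjusted p under 0.05, and edgeR and DESeq2 called 0. Gas5 had a log2 change of 0.67 (SE 0.19, adjusted p = 0.0134), and Snhg3 and Snhg5 of -0.69 (SE 0.21, adjusted p = 0.0274) and -0.70 (SE 0.18, adjusted p = 0.00523), all under the fold threshold, and 11.4% of all genes tested had an adjusted p under 0.05 here. The Gas5 value was 0.35 without KO replicate 1, whose low polysome library held 389 CPM of Gas5 against 271 and 217 CPM in the others, and the values of Snhg3 and Snhg5 were -0.91 and -0.76.

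The same library held 84.2 CPM of Snhg8 against 34.0 and 36.3 CPM, and the Snhg8 change in the low polysome to monosome ratio was 0.51 with it (SE 0.24, adjusted p = 0.175) and 0.02 without it. For the ratio of high to low polysome, 1 of the 8 was called higher, beside 2.29% of all genes tested. That gene was Epb41l4aos, at a log2 change of 1.34 (SE 0.26, adjusted p = 2.99e-04) and at -2.18, -2.14 and -2.25 in the WT gradients against -1.30, -0.82 and -0.53 in the KO gradients, and its change was 1.55 without KO replicate 1. An adjusted p under 0.05 was reached by 3 of the 8, beside 17.8% of all genes tested. Snhg8 had a change of 0.96 (SE 0.30, adjusted p = 0.0192), just under the threshold, and was called at 1.31 without KO replicate 1, when 2 of the 8 were called. The count was also 2 without WT replicate 1 and 3 without WT replicate 2. Snhg6 was at 0.15 in KO replicate 1 and at -1.35 and -1.20 in the other KO gradients, which leaves its change of 0.48 (SE 0.29, adjusted p = 0.266) uncalled.

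Within each fraction KO was then compared with WT, and the log2 difference was below 0 for each gene in each fraction except Snhg12 in high polysomes. In monosomes all 3 KO libraries lay below all 3 WT libraries for each of the 8 genes, as for 25.7% of all genes tested. All 8 had an adjusted p under 0.05, beside 37.3% of all genes tested in either direction, and 4 of them fell past the fold threshold, beside 9.63% called lower. The change in translation level uses the same monosome libraries, so the 2 results are not independent. Snhg8 was at 816, 842 and 903 CPM in WT monosomes and at 150, 167 and 185 CPM in KO monosomes, a 5.09-fold fall (log2 change -2.35, SE 0.16, adjusted p = 3.27e-15). Snhg6, at 805, 716 and 931 CPM in WT, was at 177, 153 and 179 CPM in KO (log2 change -2.26, SE 0.14, adjusted p = 2.63e-16). These were the largest falls among the 8.

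Epb41l4aos was at 404, 467 and 568 CPM in WT monosomes and at 136, 149 and 127 CPM in KO monosomes, a log2 change of -1.79 (SE 0.14, adjusted p = 1.61e-13). Gas5 was at 661, 874 and 757 CPM in KO monosomes, a log2 change of -1.54 (SE 0.13, adjusted p = 1.89e-12). The 4 past the fold threshold in monosomes were also the 4 called higher for translation level, a ratio in which the monosome level is the denominator. Snhg1 and Snhg5 each had a log2 difference of -0.92 (SE 0.13 and 0.12), Snhg12 of -0.68 (SE 0.13) and Snhg3 of -0.58 (SE 0.15), with adjusted p from 5.10e-08 to 0.00152 but under the fold threshold. Without WT replicate 1, Snhg1 and Snhg5 were called at -1.03 and -1.02, and Snhg5 was called without KO replicate 2 at -1. The median log2 difference of the 8 in monosomes was -1.23, beside -0.05 over all genes tested and -0.33 over other lncRNAs. In these bulk samples, fewer cells that make an RNA and less RNA per cell cannot be told apart, and total RNA of these cells was not analysed here.

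**Figure D4:**
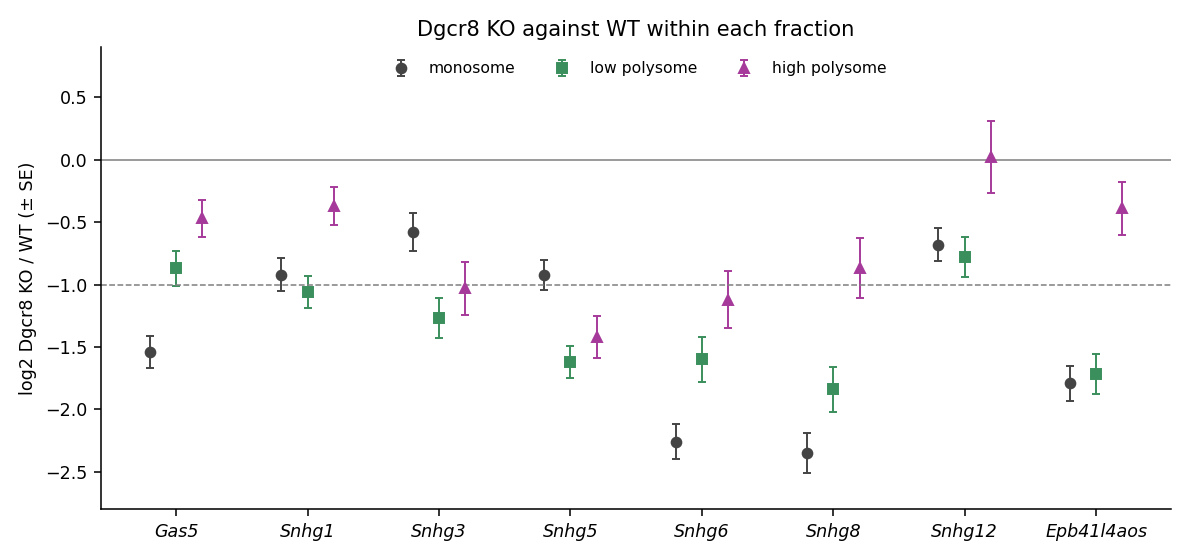
Log2 difference between Dgcr8 KO and WT ESCs in the monosome, low polysome and high polysome fractions for each host lncRNA, with SE from limma-voom (3 libraries per group). The dashed line at -1 is the fold threshold. Gas5, Snhg6, Snhg8 and Epb41l4aos have their lowest value in monosomes, and Snhg1, Snhg3, Snhg5 and Snhg12 have theirs in low polysomes. For Epb41l4aos, Snhg1 and Snhg12 the monosome and low polysome values differ by less than the SE of their difference.

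In low polysomes 6 of the 8 fell, beside 13.6% of all genes tested called lower. Snhg5 was at 169, 163 and 203 CPM in WT low polysomes and at 57.2, 63.4 and 53.6 CPM in KO, a log2 change of -1.62 (SE 0.13, adjusted p = 1.21e-13). Snhg3 was at 195, 179 and 134 CPM in WT and at 82.1, 74.3 and 54.9 CPM in KO, a log2 change of -1.27 (SE 0.16, adjusted p = 5.97e-09). For Snhg3, Snhg5, Snhg1 and Snhg12 the fitted difference was larger in low polysomes than in monosomes. By limma-voom the gap was not resolved for Snhg1, at -0.14 (SE 0.18, adjusted p = 0.702). The same held for Snhg12, at -0.10 (SE 0.21, adjusted p = 0.825). Snhg8, Epb41l4aos, Snhg6 and Snhg1 fell by 1.84, 1.72, 1.60 and 1.06 on the log2 scale. Without KO replicate 1 these changes were -2.25, -1.94, -1.43 and -1.09, and those of Snhg5 and Snhg3 were -1.61 and -1.39. Gas5 had a log2 difference of -0.87 (SE 0.14) and Snhg12 of -0.78 (SE 0.16), both with adjusted p under 0.05 and under the fold threshold, and Gas5 was called at -1.10 without KO replicate 1. Without KO replicate 3 the difference of Snhg1 was -0.98 and was not called.

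In high polysomes 3 of the 8 fell, beside 17.9% of all genes tested called lower, and 6 had an adjusted p under 0.05, beside 60.7% of all genes tested in either direction, a share near that background. Snhg5 was at 47.6, 51.5 and 52.2 CPM in WT and at 19.5, 17.4 and 19.5 CPM in KO, a log2 change of -1.42 (SE 0.17, adjusted p = 3.71e-09), and was the most reduced of the set there. Snhg6 had a log2 change of -1.12 (SE 0.23, adjusted p = 4.43e-05) and Snhg3 of -1.03 (SE 0.21, adjusted p = 7.39e-05). Gas5 and Epb41l4aos were not called, at -0.47 (SE 0.15) and -0.39 (SE 0.21). None of the 4 RNAs with a higher translation level thus rose in high polysomes. Without KO replicate 2 Snhg5 alone was called, with Snhg6 at -0.85 and Snhg3 at -0.97. Snhg3 was not called either without WT replicate 1 or 2, at -0.93 each, or without KO replicate 3, at -0.96, and Snhg8, at -0.87 (SE 0.24), was called at -1.01 without WT replicate 3. Snhg12 was at 8.19, 13 and 6.69 CPM in WT and at 11.6, 9.32 and 7.35 CPM in KO. These overlapping values gave Snhg12 a log2 difference of 0.02 (SE 0.29, adjusted p = 0.951), which turned negative, to -0.20, with total counts.

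Genes that work with the host RNAs were taken from lists chosen with earlier results of these data known. Of 13 further noncoding snoRNA hosts, 10 were tested. All 10 were lower in WT high polysomes than in monosomes, beside 19.3% of all genes tested, with a median log2 ratio of -4.18. Their translation level rose in 2, beside 6.29% of all genes tested, and the median change was 0.63. The 2 were Snhg11 with a log2 change of 1.26 (SE 0.45, adjusted p = 0.0316) and Zfas1, the host of Snord12 family RNAs, with 1.01 (SE 0.18, adjusted p = 2.60e-05). By annotation, 15 genes of a noncoding biotype besides the 8 had a snoRNA gene in an intron. They include Cct6a, which GENCODE M21 lists as a processed transcript although it encodes a chaperonin subunit, and which was higher in WT high polysomes than in monosomes, 2.01-fold. In this group 2 had a higher translation level in the KO, Zfas1 and 1810032O08Rik at 1.66 (SE 0.43, adjusted p = 0.00293), and the median change was 0.64, or 0.67 over the 14 without Cct6a, a gene left out after its values were seen. Among 193 protein-coding snoRNA hosts, 25 were called higher and 8 lower, beside 6.29% and 8.81% of all genes tested, with a median of 0.35.

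Of 15 NMD factors, 2 had a higher and 2 a lower translation level in the KO, beside 6.29% and 8.81% of all genes tested, with a median of 0.12. Smg8, a regulator of the SMG1 kinase, had a change of 1.02 (SE 0.27, adjusted p = 0.00388), and Smg9, its partner, was the other one called higher. Rbm8a and Magoh, the Y14 and Magoh core of the exon junction complex, had changes of -1.48 (SE 0.16) and -1.01 (SE 0.18). None of the 15 differed past the threshold between genotypes in monosomes by limma-voom, beside 8.43% of all genes tested called higher and 9.63% lower. In that comparison 3 of the 15 had an adjusted p under 0.05, beside 37.3% of all genes tested. An unadjusted p under 0.05 was reached by 5. The helicase Upf1 had a translation level change of 0.84 (SE 0.22, adjusted p = 0.00318) and Ncbp1 of 0.81 (SE 0.21, adjusted p = 0.00328). Smg5 and Upf3a went the other way, at -0.77 (SE 0.22, adjusted p = 0.0074) and -0.70 (SE 0.19, adjusted p = 0.00433). All were under the fold threshold. Smg9 and these further genes lie outside the rule for named genes and were chosen after their values were seen.

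Of 17 proteins that build or assemble snoRNPs, 6 had a lower translation level in the KO, beside 8.81% of all genes tested, and none a higher one, with a median of -0.05. They included Snu13, a box C/D core protein, at -1.46 (SE 0.23, adjusted p = 6.60e-06), Nop10, a box H/ACA core protein, at -1.46 (SE 0.19, adjusted p = 2.25e-07), and Znhit3, a box C/D assembly factor, at -1.29 (SE 0.30, adjusted p = 9.30e-04). Of 7 factors of decapping and 5′ to 3′ decay, 1 was lower, beside 8.81% of all genes tested. That gene was Pnrc2, a decapping cofactor, at -2.24 (SE 0.27, adjusted p = 4.42e-08). None of 8 regulators of TOP messages was called for translation level by limma-voom, beside 6.29% of all genes tested called higher and 8.81% lower. An adjusted p under 0.05 was reached by 1 of these regulators, beside 3621 of 12851 genes tested, and an unadjusted one by 2. Of those 8, the translation inhibitors Eif4ebp1 and Eif4ebp2 were lower in KO monosomes, with log2 changes of -1.47 (SE 0.11) and -1.12 (SE 0.12). In monosomes 9.63% of all genes tested were called lower.

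The pattern of each host RNA over the 18 libraries was set against those of other well-counted genes. Pairs of the 8 had correlations of log2 CPM between 0.907 and 0.991, with a median of 0.960 over 28 pairs. Every such value is across libraries that share the large step between fractions and is given as a description. The gene most like both Gas5 (r = 0.989) and Epb41l4aos (r = 0.985) was 2410006H16Rik, itself a noncoding gene with a snoRNA in an intron. Snhg12 had 1110038B12Rik, a further noncoding host, among its 3 nearest genes (r = 0.992). Epb41l4aos had Rpl41 next (r = 0.978), with a coding sequence of 75 nt. Snhg3 was nearest to Rps21 (r = 0.982, 249 nt) and Snhg5 to Gng5 (r = 0.990, 204 nt) and Rps26 (r = 0.989, 345 nt), and both had Serf2 (177 nt) among their nearest 3. Snhg6 was nearest to Rpsa-ps1 (r = 0.975) and Rpl27a (r = 0.974, 444 nt), and Snhg8 to Dqx1 (r = 0.986, 2154 nt). Snhg1 was nearest to Wbp1 (r = 0.989, 912 nt) and to the lncRNA Firre (r = 0.985).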

How the data were processed

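The data were polysome profiles of WT and Dgcr8 KO ESCs, 18 libraries. The deposited file is a table of raw read counts, 1 value per gene and library. The authors trimmed reads with Cutadapt 1.14, kept unique STAR 2.5.3a alignments to mm10 and counted reads on the sense strand with featureCounts 1.5.3 over GENCODE M14 without ribosomal RNA genes. Molecular identifiers were not mentioned, and PCR copies may therefore be counted as separate reads. A gene length column was not used to normalise.

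Symbols and transcript structures came from GENCODE M21 (GRCm38), which matched 51274 of 51467 genes. The 92 spike-in entries, at most 0.00215% of reads, were left out. Libraries of the same genotype and replicate number were taken as 1 gradient. Genes with at least 3 CPM in at least 3 libraries were kept, scaled with TMM and fitted with limma-voom (limma 3.58.1, R 4.3.3) with 1 mean per group, after the study's methods in the filter and the interaction term. Two-sided p-values were adjusted by Benjamini-Hochberg across the 12851 genes. A gene was called where this p was under 0.05 and its log2 fold change exceeded 1 in size. Ratios per gradient are log2 CPM differences with a prior count of 2. The fit was tested on simulated data.

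The 8 genes, the gene lists and the thresholds were chosen with earlier results of these data known. All 8 genes are named. From a list of more than 12 genes, at most 3 called higher and 3 called lower with a mean count of at least 50 in monosome and high polysome libraries are named, and for each of the 8 the genes of highest correlation among those with a mean count of at least 50. Alternatives were edgeR 4.0.16, DESeq2 1.42.0, other scalings, filters and thresholds, fits with fewer libraries, a replicate block and leaving out each gradient.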

Additional observations from a re-analysis of the deposited data

Results flagged for a closer look

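Effects that differed between the fractions of a gradient, tested as the interaction of genotype and fraction with limma-voom, were found for 4 of the 8 host RNAs. For high polysome against monosome, the log2 difference between the genotypes was 1.07 for Gas5, 1.14 for Snhg6, 1.47 for Snhg8 and 1.40 for Epb41l4aos. The KO ratio of each lay above the WT ratio in 3 of 3 gradients against each WT gradient, as for 20.3% of all genes tested. Of all genes tested, 6.29% were called higher. For high against low polysome the log2 difference was 1.34 for Epb41l4aos, beside 2.29% of all genes tested called higher. The levels of Gas5, Snhg6, Snhg8 and Epb41l4aos fell in KO monosomes, with log2 changes of -1.54, -2.26, -2.35 and -1.79 in that order. In KO high polysomes their changes were -0.47, -1.12, -0.87 and -0.39, so none of the 4 rose there. The change in the ratio is the high polysome change less the monosome change. Each higher ratio thus reflects a larger fall in monosomes than in high polysomes. Why the monosome levels fell was not tested. Groups of 3 libraries are too small for a check of single outlying samples.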

How the results depend on the processing

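Each call and log2 change of the 8 host RNAs was recomputed under 15 alternatives. Of 1200 values, 1153 kept their direction and their side of the threshold, 13 lost a call, 26 gained one and 8 changed sign. edgeR, DESeq2 and the replicate block changed no call of the 8: with the replicate block, 4 had a higher translation level, as without it. Deviations of same-numbered fractions of one genotype correlated at 0.032 to 0.135, above 0.1 in 4 of 18 pairs, and those of same-numbered libraries across genotypes at 0.00 to 0.102.

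The number called for translation level was 2 with total counts and ran from 2 to 5 when 1 gradient was left out. Gas5 also lost its call, at 1, with all genes that have a count, and Snhg3 in high polysomes, at -0.99, with only the libraries compared. With no fold threshold, 3 of the 8 were called for low polysome against monosome, 3 for high against low polysome, 8 for KO against WT in monosomes and 6 in high polysomes, beside 11.4%, 17.8%, 37.3% and 60.7% of all genes tested. Leaving out 1 gradient gave 1 to 3 calls for high against low polysome and 1 to 4 for KO against WT in high polysomes, 1 without KO replicate 2. The change of Epb41l4aos in low polysome against monosome was -0.07 with total counts and ran from -0.16 to 0.27 without 1 gradient. The difference of Snhg12 in high polysomes was -0.20 with total counts and -0.03 with a filter of 10 CPM, and ran from -0.21 to 0.31. The causes were not tested. Snhg12, with 21 to 36 reads per high polysome library, is the gene that depth limits most.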
